A study of Mus musculus with 24 samples.

Results

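Interferon-stimulated genes are the genes that a cell switches on when interferon reaches its surface. Type I interferons bind the receptor made of IFNAR1 and IFNAR2, and the kinases JAK1 and TYK2 then phosphorylate STAT2, which acts with IRF9 in the factor ISGF3. ISGF3 binds the interferon-stimulated response element (ISRE) in the promoters of these genes, while interferon gamma acts through IFNGR1 and IFNGR2 and the gamma-activated sequence (GAS). In hematopoietic stem cells the response is of interest because type I interferon can drive quiescent stem cells into cycle, and because interferon alpha is a long-standing treatment of chronic myeloid leukemia (CML).

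The members were the rows of the read count table whose symbol matches a fixed list of 41 genes induced by type I or type II interferon. All 41 were in the table of 24091 genes, and all 41 passed the filter on low counts, as did 13520 genes in all. By role they comprised 7 regulators of the pathway, 9 sensors of foreign RNA or DNA, 10 antiviral effectors, 3 genes of ADP-ribosylation, 6 GTPases and antigen transport genes, and 6 other induced genes.

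Bulk RNA-seq was made from bone marrow LSKs (Lin-Sca-1+c-Kit+ cells, the fraction rich in stem and early progenitor cells) of 4 groups of 6 mice, 3 females and 3 males in each. WT mice carried miR-142 and no leukemia, and miR-142 KO mice lacked miR-142. CP CML mice were miR-142+/+ with the SCLtTA/BCR-ABL transgenes, a model of chronic phase CML, and BC CML mice were miR-142-/- with the same transgenes, the study's model of blast crisis. The transgenic and the miR-142 KO lines were both CD45.2 on a C57BL/6 background, and leukemic LSKs were taken 2 weeks after tetracycline was withdrawn to induce BCR-ABL. The age of the mice is not given in the sources used here. The transgene is driven by the SCL promoter, so its expression is limited to cells that use that promoter, and miR-142 is absent from all cells of the knockout mice, not from LSKs alone. Whether the WT and miR-142 KO mice received tetracycline or carried the tTA transgene is not given in the sources used here.

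Depth was similar across libraries, from 16267965 to 24687077 counts, and the Mir142 transcript had 0 counts in all 12 libraries of the 2 knockout groups against 68 to 153 counts in the other 12. Both genes of the sort, Ly6a (Sca-1) and Kit, were detected in every library. Ly6a is itself inducible by interferon, so the gate used a gene of the same family of responses, and its level, in CPM (read counts scaled to library size), spanned 30.7 to 49.5 among WT libraries, 36.6 to 69.9 among CP CML libraries, 51.5 to 155.4 among miR-142 KO libraries and 94.3 to 134.8 among BC CML libraries. Among the libraries, miR-142 KO 3 stood apart: it was the highest of its group for 30.9% of all tested genes and the lowest for 29.2%, while the next library of that group, miR-142 KO 2, reached 18.3% and 17.8%. BC CML 3 was the highest of its group for 21.3% and the lowest for 24.1% of all tested genes. The calls that change without either library are given with the results.

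To show the element through which many of these genes are induced, promoter windows of 300 bases (250 before the start of transcription and 50 after it) were taken from RefSeq on GRCm38.p6 for the 30 members that had one. The ISRE core was searched as GAAANNGAAA on both strands. It was found in 16 of the 30 members, or 53.3%, against 3.86% of the 10447 tested genes with a window and 3.99% of all 27025 genes with one. The GAS, searched as TTCNNNGAA, which reads the same on both strands, was in 7 of 30 members, or 23.3%, against 8.39% of tested genes. The following 7 stretches of 52 bases show the element in members named in the results below. The ISRE core matches are in capitals, which run together where matches overlap, and each stretch is written on the strand of its gene.
Isg15, chr4:156200854-156200905, minus strand: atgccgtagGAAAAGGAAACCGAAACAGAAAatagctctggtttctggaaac
Ifit1, chr19:34640783-34640834, plus strand: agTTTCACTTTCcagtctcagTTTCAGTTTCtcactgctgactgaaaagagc
Ifit3, chr19:34583386-34583437, plus strand: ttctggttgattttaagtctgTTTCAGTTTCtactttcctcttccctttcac
Rsad2, chr12:26456542-26456593, minus strand: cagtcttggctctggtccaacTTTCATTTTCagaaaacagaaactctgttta
Gbp2, chr3:142620583-142620634, plus strand: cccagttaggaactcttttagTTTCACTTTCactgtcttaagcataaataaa
Gbp3, chr3:142559984-142560035, plus strand: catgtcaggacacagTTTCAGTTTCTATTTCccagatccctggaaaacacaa
Bst2, chr8:71537566-71537617, minus strand: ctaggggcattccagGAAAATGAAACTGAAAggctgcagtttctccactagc

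Isg15 held 3 overlapping matches, while Ifit1, Gbp3 and Bst2 held 2 each within the stretch shown. Over all members there were 26 matches, whose first bases lay at positions -222 to 33 relative to the start. Of these, 19 lay within 100 bases before the start or after it. Irf7, Irf9, Oasl2, Ifi44 and 10 other members with a window held no match, which says only that these letters were not in that window. In CP CML against WT the median log2 fold change was -0.64 for members with the ISRE core and -0.92 for those without. For the GAS these medians were -0.45 and -0.93. In BC CML against miR-142 KO they were -0.68 and -0.77 for the ISRE core and -0.31 and -0.83 for the GAS. These differences were not tested.

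The first question was how the leukemic state bears on these genes when miR-142 is intact, that is, CP CML against WT. Nearly all members were lower in CP CML. By edgeR's quasi-likelihood test with Benjamini-Hochberg adjustment over all 13520 genes, 37 of 41 fell and 1 rose, where 22.9% of all tested genes were called lower and 22.5% higher. Over the 41 members the median log2 fold change was -0.93, against -0.02 over all tested genes, and for 33 members every CP CML library was below every WT library, against 9.87% of tested genes. In bulk RNA a lower value cannot tell fewer cells that express a gene from less RNA per cell.

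**Figure D1:**
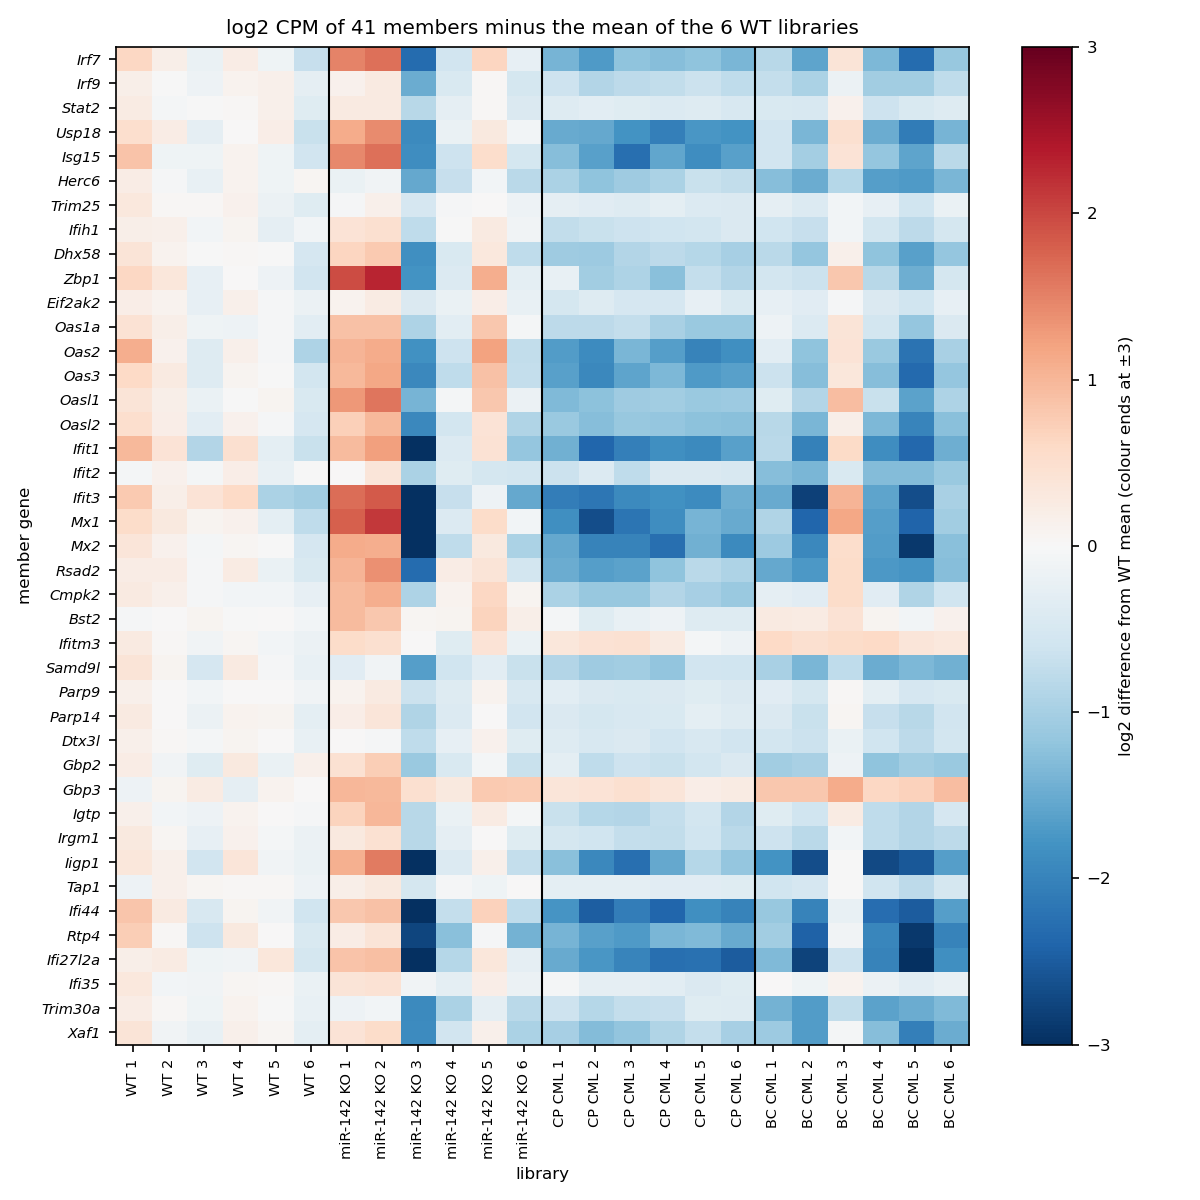
Heatmap of log2 CPM minus the mean of the 6 WT libraries for the 41 members (rows, by role) in the 24 libraries (columns, by group); red is higher and blue lower than WT, with the colour scale ending at 3 in either direction. The CP CML columns are blue for most rows, miR-142 KO 3 is blue and miR-142 KO 1 and 2 are red, and BC CML 3 stands out from the other BC CML columns.

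All 7 regulators fell in CP CML. Irf7, the factor that amplifies type I interferon production (chr7:141263183-141266424, mm10), ran from 16.2 to 39.9 CPM in WT (median 26.6) and from 7.97 to 11.3 CPM in CP CML (median 10.4). The groups did not overlap, and its log2 fold change was -1.41 ± 0.46 (SE, adjusted p = 0.016 by edgeR). Isg15, the ubiquitin-like modifier that is conjugated to proteins in infected cells (chr4:156199424-156200818), ran from 4.24 to 11.5 CPM in WT (median 5.74) and from 1.25 to 2.55 CPM in CP CML (median 1.98). Its log2 fold change was -1.79 ± 0.45 (adjusted p = 0.0027 by edgeR), a mean 3.47-fold lower level. Usp18, the protease that removes ISG15 and damps receptor signaling, ran from 7.92 to 18.2 CPM in WT (median 13.7) and from 2.98 to 4.43 CPM in CP CML (median 3.68). It fell by 1.80 ± 0.43 on the log2 scale (adjusted p = 0.0016 by edgeR), again without overlap.

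The 2 members of ISGF3 on the list moved less. Irf9, its DNA-binding part, ran from 79.1 to 107.5 CPM in WT (median 98.2) and from 51.6 to 61.4 CPM in CP CML (median 56.3), with a log2 fold change of -0.75 ± 0.20 (adjusted p = 0.0033 by edgeR). Stat2 ran from 55.3 to 84.1 CPM in WT (median 71.1) and from 50.5 to 56.6 CPM in CP CML (median 54.0). Its groups overlapped, and it fell by 0.41 ± 0.15 on the log2 scale (adjusted p = 0.027 by edgeR). Herc6, the ligase that attaches ISG15 in the mouse, and Trim25, a ligase that activates the sensor RIG-I, fell by 0.93 and 0.37 on the log2 scale.

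Of the 9 sensors, 8 fell. Oas1a, Oas2 and Oas3, of the family that activates RNase L on double-stranded RNA, lie together on chromosome 5, and Oas2 and Oas3 had log2 fold changes of -1.86 ± 0.45 and -1.68 ± 0.42. Oas2 was at 24.1 to 98.1 CPM in WT (median 47.3) and at 11.4 to 17.9 CPM in CP CML (median 13.6). Oas1a and the related Oasl1 and Oasl2 fell by 0.94, 1.18 and 1.24 on the log2 scale. Ifih1 (MDA5) and Dhx58 (LGP2), both relatives of RIG-I, fell by 0.61 and 0.97, and the kinase Eif2ak2 (PKR), which stops translation, by 0.45. Zbp1, a sensor of Z-form nucleic acid, had the 1 value that missed the threshold in this group, with a log2 fold change of -0.88 ± 0.48 (adjusted p = 0.14 by edgeR) and overlapping groups.

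Of the 10 antiviral effectors, 8 fell, with a median log2 fold change of -1.16 over the 10. Ifit3, which binds viral RNA with the other IFIT proteins (chr19:34583529-34588982), was low throughout, at 1.09 to 4.10 CPM in WT (median 2.89) and 0.454 to 0.789 CPM in CP CML (median 0.561). It fell by 2.18 ± 0.73 on the log2 scale (adjusted p = 0.019 by edgeR). Its neighbor Ifit1 was at 6.38 to 23.5 CPM in WT (median 12.7) and at 2.23 to 4.31 CPM in CP CML (median 3.19), a log2 fold change of -2.03 ± 0.56 (adjusted p = 0.0054 by edgeR). Ifit2, the third of the cluster on chromosome 19, fell by 0.52 ± 0.17 only. The dynamin-like GTPases Mx1 and Mx2, which block viral replication, fell by 1.94 ± 0.64 and 1.91 ± 0.53. Mx1 was at 6.30 to 15.8 CPM in WT (median 11.5) and at 1.61 to 4.02 CPM in CP CML (median 2.90), and Mx2 at 5.34 to 9.77 CPM (median 7.65) and 1.49 to 2.71 CPM (median 1.87). The neighbors Rsad2 (viperin) and Cmpk2, an enzyme of nucleotide phosphorylation, fell by 1.27 and 1.04, and Samd9l by 0.91. Bst2 (tetherin), which holds budding virus at the cell surface, and Ifitm3, which blocks viral fusion, were not called, with log2 fold changes of -0.26 ± 0.13 and 0.22 ± 0.13 (adjusted p = 0.10 and 0.18 by edgeR).

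The 3 ADP-ribosylation genes, Parp9, Parp14 and Dtx3l, lie together on chromosome 16 and fell by 0.41, 0.44 and 0.49 on the log2 scale. Parp9 and Dtx3l overlap on opposite strands, so reads in the shared part can be assigned to one or the other only where the counting used strand, which is not given in the sources used here. Of the 6 other induced genes all fell. Ifi44, a gene of unknown mechanism that is widely used as a marker of the response (chr3:151730923-151749959), ran from 25.5 to 67.9 CPM in WT (median 38.0) and from 6.81 to 11.2 CPM in CP CML (median 9.19), a mean 4.48-fold lower level (log2 fold change -2.16 ± 0.48, adjusted p = 9.6e-04 by edgeR). Ifi27l2a was at 3.19 to 5.86 CPM in WT (median 4.80) and at 0.745 to 1.58 CPM in CP CML (median 1.01), a fall of 2.12 ± 0.51 on the log2 scale. Rtp4, Xaf1, Trim30a and Ifi35 fell by 1.57, 1.02, 0.60 and 0.29.

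Among the GTPases and antigen transport genes 5 of 6 fell and 1 rose. Iigp1, a GTPase that attacks vacuoles of intracellular pathogens, fell by 1.47, its relatives Igtp and Irgm1 by 0.76 and 0.67, and the peptide transporter Tap1 by 0.32. Gbp2, a guanylate-binding protein of the same defense, fell by 0.56 ± 0.23 (adjusted p = 0.048 by edgeR) with overlapping groups, a call lost under DESeq2, under either other filter on low counts and with most single libraries left out. The calls of Ifi35, Parp14, Iigp1 and Stat2 were also lost with more than 1 of the single libraries left out, and those of Rsad2 and Trim30a without CP CML 2 and of Tap1 without WT 2. The neighbor of Gbp2, Gbp3 (chr3:142560052-142573212), went the other way. It ran from 49.5 to 71.0 CPM in WT (median 62.1) and from 68.7 to 83.5 CPM in CP CML (median 77.6), a log2 fold change of 0.34 ± 0.11 (adjusted p = 0.013 by edgeR), and the groups overlapped. Both promoters hold the ISRE core, as printed above. GBP genes are close paralogs in a tandem cluster, and how reads shared between them were counted is not given in the sources used here.

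**Figure D2:**
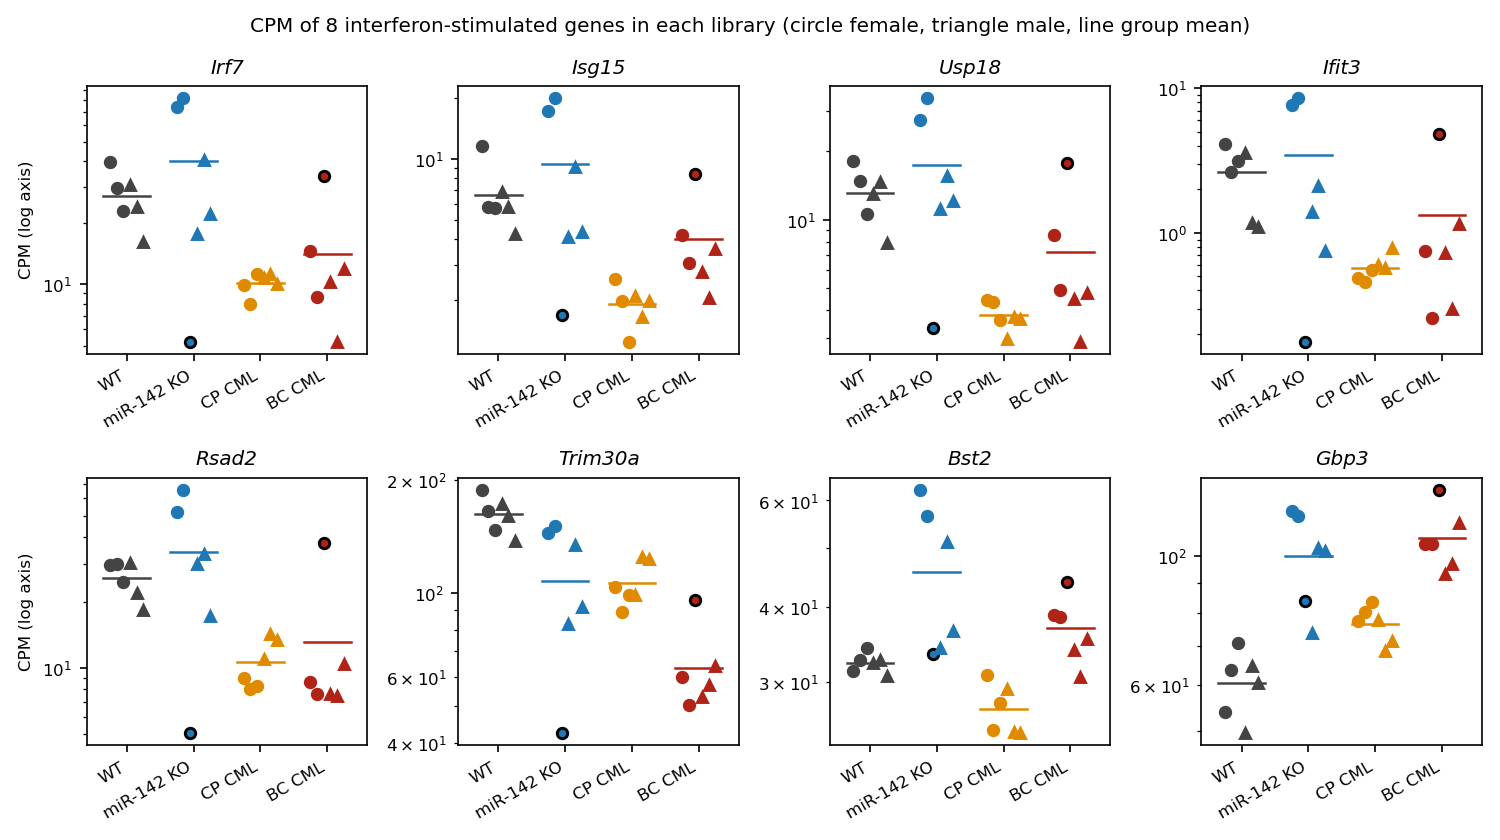
CPM (log axis) of 8 members in each of the 24 libraries, by group; circles are females, triangles males, the horizontal line is the group mean, and miR-142 KO 3 and BC CML 3 have a black edge. Irf7, Isg15, Usp18, Ifit3 and Rsad2 are low and even in CP CML and widely spread in miR-142 KO, while Gbp3 is lowest in WT.

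The matching comparison without miR-142, BC CML against miR-142 KO, had the same main direction. By edgeR 28 of 41 members fell and 0 rose, where 19.3% of all tested genes were called lower and 20.3% higher. An unadjusted p under 0.05 was reached by 35 members, and the share of all tested genes under that limit is not given here. DESeq2 and edgeR's likelihood ratio test each called 30 lower and 0 higher. The median log2 fold change was -0.83, against -0.02 over all tested genes. For 0 of the 41 members, however, was every BC CML library below every miR-142 KO library, against 4.48% of tested genes. miR-142 KO 3 lay at the bottom of the knockout group for most members, and BC CML 3 at the top of its own. The count depends on the libraries that enter: 10 members were called lower when the 12 libraries compared were fitted alone, 39 without BC CML 3, 38 without miR-142 KO 3 and 18 without BC CML 5. Without miR-142 KO 2, 13 were called lower and 1 higher, and without miR-142 KO 1, 16 lower and 1 higher. The calls over all tested genes, in either direction, moved as well, from 5358 of 13520 in the main fit. They were 4555 of 12934 with the 12 libraries, 5694 of 13619 without BC CML 3 and 6471 of 13616 without miR-142 KO 3. Without BC CML 5, miR-142 KO 2 and miR-142 KO 1 they were 5130 of 13610, 4751 of 13597 and 4797 of 13600.

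Irf7 was at 5.22 to 81.6 CPM in miR-142 KO (median 31.4) and at 5.23 to 34.0 CPM in BC CML (median 11.0). Its log2 fold change was -1.51 ± 0.46 (adjusted p = 0.012 by edgeR), although the lowest knockout library and the lowest BC CML library had nearly the same value. Ifi27l2a had the largest fall, 1.91 ± 0.50 on the log2 scale (adjusted p = 0.0045 by edgeR), from 0.265 to 8.79 CPM in miR-142 KO (median 4.88) to 0.298 to 2.98 CPM in BC CML (median 1.16). Iigp1 fell by 1.89 ± 0.55 (adjusted p = 0.0096 by edgeR), with medians of 30.8 CPM in miR-142 KO and 7.52 CPM in BC CML. Its 6 knockout libraries ran from 1.86 to 97.8 CPM, and its BC CML libraries from 4.94 to 32.5 CPM. Ifi44, Zbp1, Rsad2, Usp18 and Isg15 fell by 1.54, 1.46, 1.37, 1.27 and 1.23 on the log2 scale. The calls of these genes and of Irf7 were lost when the 12 libraries compared were fitted alone, while those of Ifi27l2a and Iigp1 were kept. Isg15 and Zbp1 also lost their calls without miR-142 KO 1, and Isg15, Zbp1, Rsad2 and Usp18 without miR-142 KO 2. That of Isg15 was lost as well without BC CML 2, without BC CML 4 and without BC CML 5. Isg15 ran from 1.68 to 19.9 CPM in miR-142 KO (median 6.72) and from 2.04 to 8.42 CPM in BC CML (median 3.31), and Usp18 from 3.32 to 34.3 CPM (median 13.8) and 2.89 to 17.8 CPM (median 4.81).

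By role, 5 of 7 regulators, 9 of 9 sensors, 4 of 10 antiviral effectors, 1 of 3 ADP-ribosylation genes, 5 of 6 GTPases and antigen transport genes and 4 of 6 other induced genes fell. Of the 9 sensors only Ifih1 kept its call with the 12 libraries fitted alone, and likewise without miR-142 KO 2. Irf9 fell by 0.52 ± 0.20 (adjusted p = 0.038 by edgeR), a call also lost with the 12 libraries fitted alone. Stat2 had a log2 fold change of -0.25 ± 0.15 that missed the threshold (adjusted p = 0.19 by edgeR). Mx1, Mx2, Ifit1 and Ifit3 also missed it, with log2 fold changes of -1.50, -1.18, -1.16 and -1.38 and standard errors of 0.60, 0.51, 0.54 and 0.68. Gbp3 and Ifitm3 had values above 0, at 0.10 ± 0.11 and 0.30 ± 0.13, and neither was called.

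**Figure D3:**
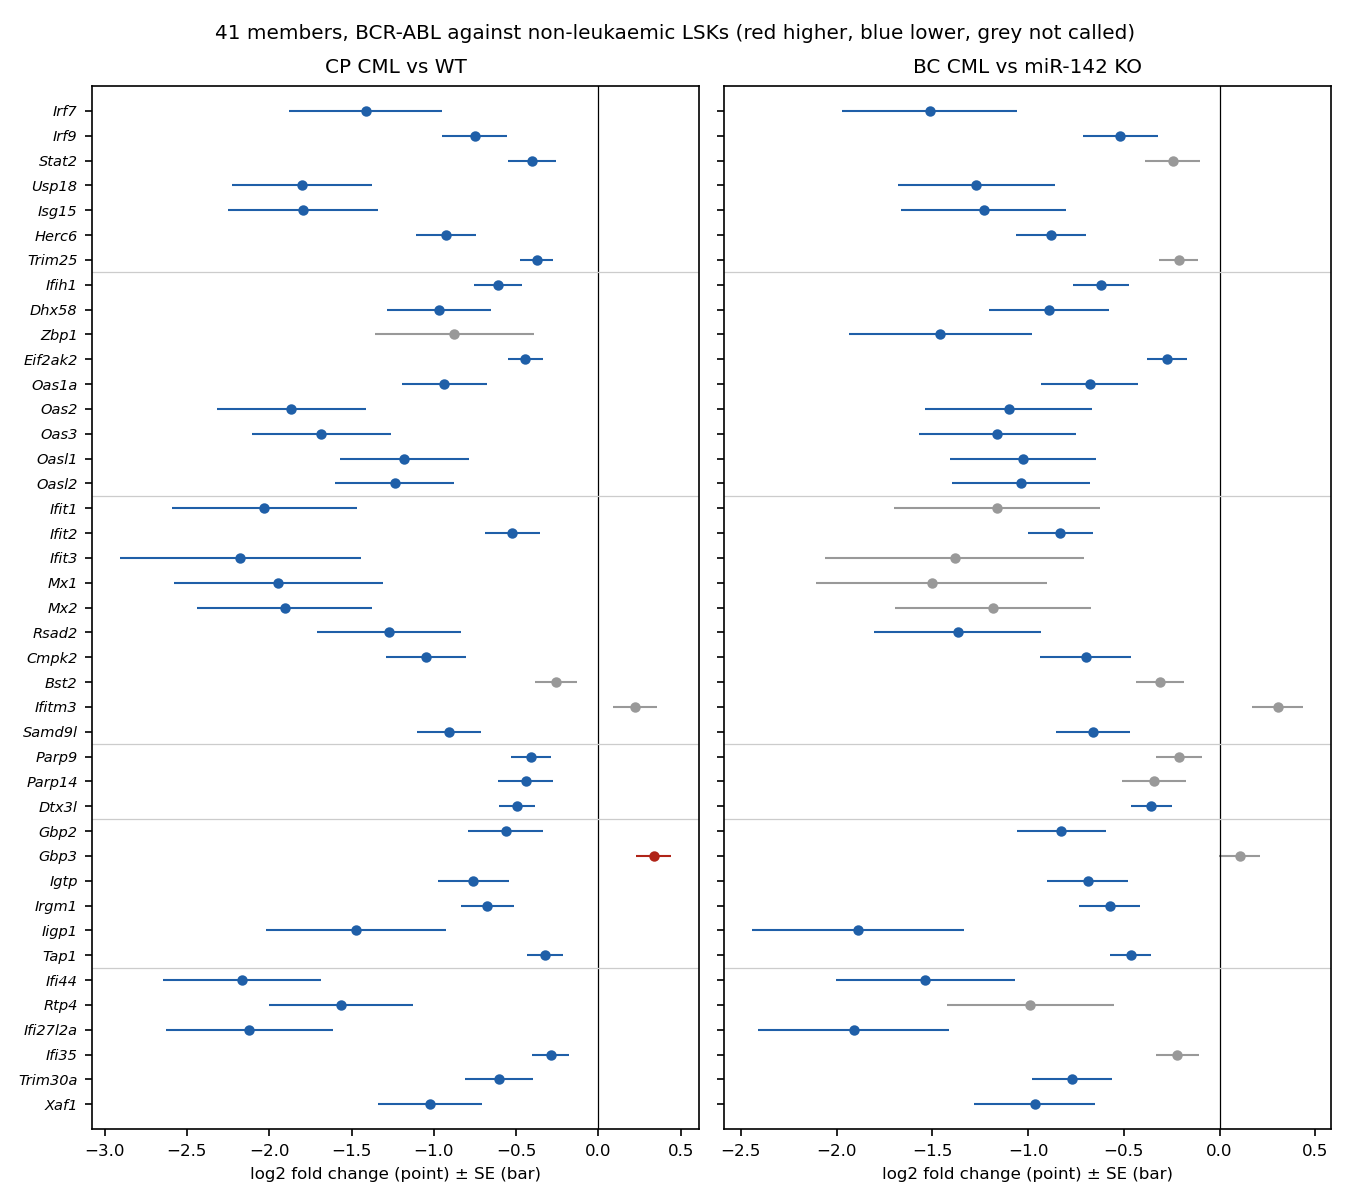
Log2 fold change (point) and standard error (bar) of each of the 41 members, ordered by role, for CP CML against WT and for BC CML against miR-142 KO; red is called higher, blue called lower and grey not called by edgeR at an adjusted p under 0.05. Points lie left of 0 for 39 members in each panel, and Gbp3 and Ifitm3 lie right of it in both.

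The second question was what the loss of miR-142 does, first in BCR-ABL LSKs and then without leukemia. In BC CML against CP CML few members changed: by edgeR 3 rose and 2 fell, where 20.4% of all tested genes were called higher and 17.6% lower. Over the members the median log2 fold change was 0.26, against 0.01 over all tested genes, and it became -0.03 without BC CML 3. Only for Gbp3 was every BC CML library above every CP CML library, against 11.4% of tested genes. Without miR-142 KO 3, which is in neither group but enters the shared estimate of spread, 10 members were called, 7 higher and 3 lower. More members were called lower than higher without BC CML 3 (2 higher and 4 lower) and in males alone (1 and 7). The same held without BC CML 3 and miR-142 KO 3 (3 and 6), and without these and miR-142 KO 1 and 2 (4 and 8). Over all tested genes, 5608 of 13616 were called in either direction without miR-142 KO 3 and 5239 of 13619 without BC CML 3. In males alone they were 3794 of 13561, and without BC CML 3 and miR-142 KO 3 they were 5731 of 13597. For the fit without miR-142 KO 1 and 2 as well, that count is not given here. These splits of the members are descriptions only.

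Gbp3 ran from 68.7 to 83.5 CPM in CP CML (median 77.6) and from 93.1 to 130.3 CPM in BC CML (median 105.0). The log2 fold change was 0.49 ± 0.11 (adjusted p = 8.0e-04 by edgeR). Bst2 rose by 0.45 ± 0.13 (adjusted p = 0.0077 by edgeR), from 24.7 to 30.8 CPM (median 26.3) to 30.6 to 43.9 CPM (median 36.9). Cmpk2 rose by 0.79 ± 0.24 (adjusted p = 0.012 by edgeR), from 14.6 to 17.5 CPM (median 15.7) to 17.4 to 47.9 CPM (median 25.6), with overlap by the lowest BC CML library only, and its call was lost without BC CML 3 (log2 fold change 0.54, adjusted p = 0.061 by edgeR). Trim30a, a TRIM protein induced by interferon (chr7:104409026-104465193), fell by 0.75 ± 0.21 (adjusted p = 0.0067 by edgeR), from 88.9 to 124.6 CPM in CP CML (median 101.3) to 50.6 to 95.9 CPM in BC CML (median 58.3). Ifit2 fell by 0.58 ± 0.17 (adjusted p = 0.0090 by edgeR), from 32.9 to 42.0 CPM (median 40.3) to 21.4 to 40.6 CPM (median 22.7). For both of these the highest BC CML value was that of BC CML 3, and without that library their log2 fold changes were -0.93 and -0.78.

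The larger positive values in this comparison belonged to members that were not called. Mx1, Ifit3, Isg15, Oas2 and Usp18 had log2 fold changes of 1.27 ± 0.64, 1.18 ± 0.75, 1.06 ± 0.46, 1.05 ± 0.45 and 0.93 ± 0.43 (adjusted p from 0.069 to 0.22 by edgeR). Mx1 was at 1.96 to 24.2 CPM in BC CML with a median of 4.26, and the mean was 7.06 CPM. Its highest value, and that of Ifit3, was BC CML 3, and without that library the log2 fold changes of Mx1, Ifit3, Isg15, Oas2 and Usp18 were 0.30, 0.12, 0.69, 0.66 and 0.41. Irf7 and Irf9 had values of 0.46 ± 0.46 and -0.004 ± 0.20, and Stat2 of 0.04 ± 0.15, none of them called.

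In miR-142 KO against WT 2 members rose and 3 fell by edgeR, where 19.9% of all tested genes were called higher and 16.4% lower. The median log2 fold change was 0.07, against 0.01 over all tested genes. Gbp3 rose by 0.72 ± 0.11 (adjusted p = 1.2e-05 by edgeR), from 49.5 to 71.0 CPM in WT (median 62.1) to 73.8 to 119.5 CPM in miR-142 KO (median 102.8), and every knockout library was above every WT library, the only member for which this held, against 8.31% of tested genes. Bst2 rose by 0.50 ± 0.13 (adjusted p = 0.0033 by edgeR), from 30.7 to 34.2 CPM (median 32.4) to 33.4 to 62.5 CPM (median 43.8). Trim30a, Samd9l and Herc6 fell by 0.58 ± 0.21, 0.57 ± 0.19 and 0.49 ± 0.18 (adjusted p = 0.030, 0.023 and 0.035 by edgeR). Trim30a ran from 137.5 to 188.1 CPM in WT (median 162.4) and from 42.5 to 150.9 CPM in miR-142 KO (median 113.2). These 3 calls were lost when the 12 libraries compared were fitted alone, and also without WT 1, without WT 4 and without miR-142 KO 6, each of which left Gbp3 and Bst2 of the 5. Herc6 and Trim30a were also lost without miR-142 KO 3, without miR-142 KO 4 and without WT 2, Trim30a without WT 5 and Herc6 without WT 6. With BC CML 3 and miR-142 KO 3 both left out, 11 members were called, 8 higher and 3 lower, with Zbp1 at 1.28 and Cmpk2 at 0.62 on the log2 scale. With miR-142 KO 1 and 2 left out as well the split was 2 higher and 6 lower (median -0.18), and in males alone it was 1 higher and 5 lower. Over all tested genes, 4612 of 13597 were called in either direction without BC CML 3 and miR-142 KO 3, and 2915 of 13561 in males alone. For the fit without miR-142 KO 1 and 2 as well, that count is not given here.

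Irf7, Isg15, Usp18, Irf9 and Stat2 were not called in this comparison, with log2 fold changes of 0.57 ± 0.44, 0.50 ± 0.42, 0.40 ± 0.40, -0.24 ± 0.19 and -0.12 ± 0.15. Zbp1 had the highest value, 1.04 ± 0.47 (adjusted p = 0.086 by edgeR), with 2.79 to 48.9 CPM in miR-142 KO against 6.60 to 15.3 CPM in WT.

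**Figure D4:**
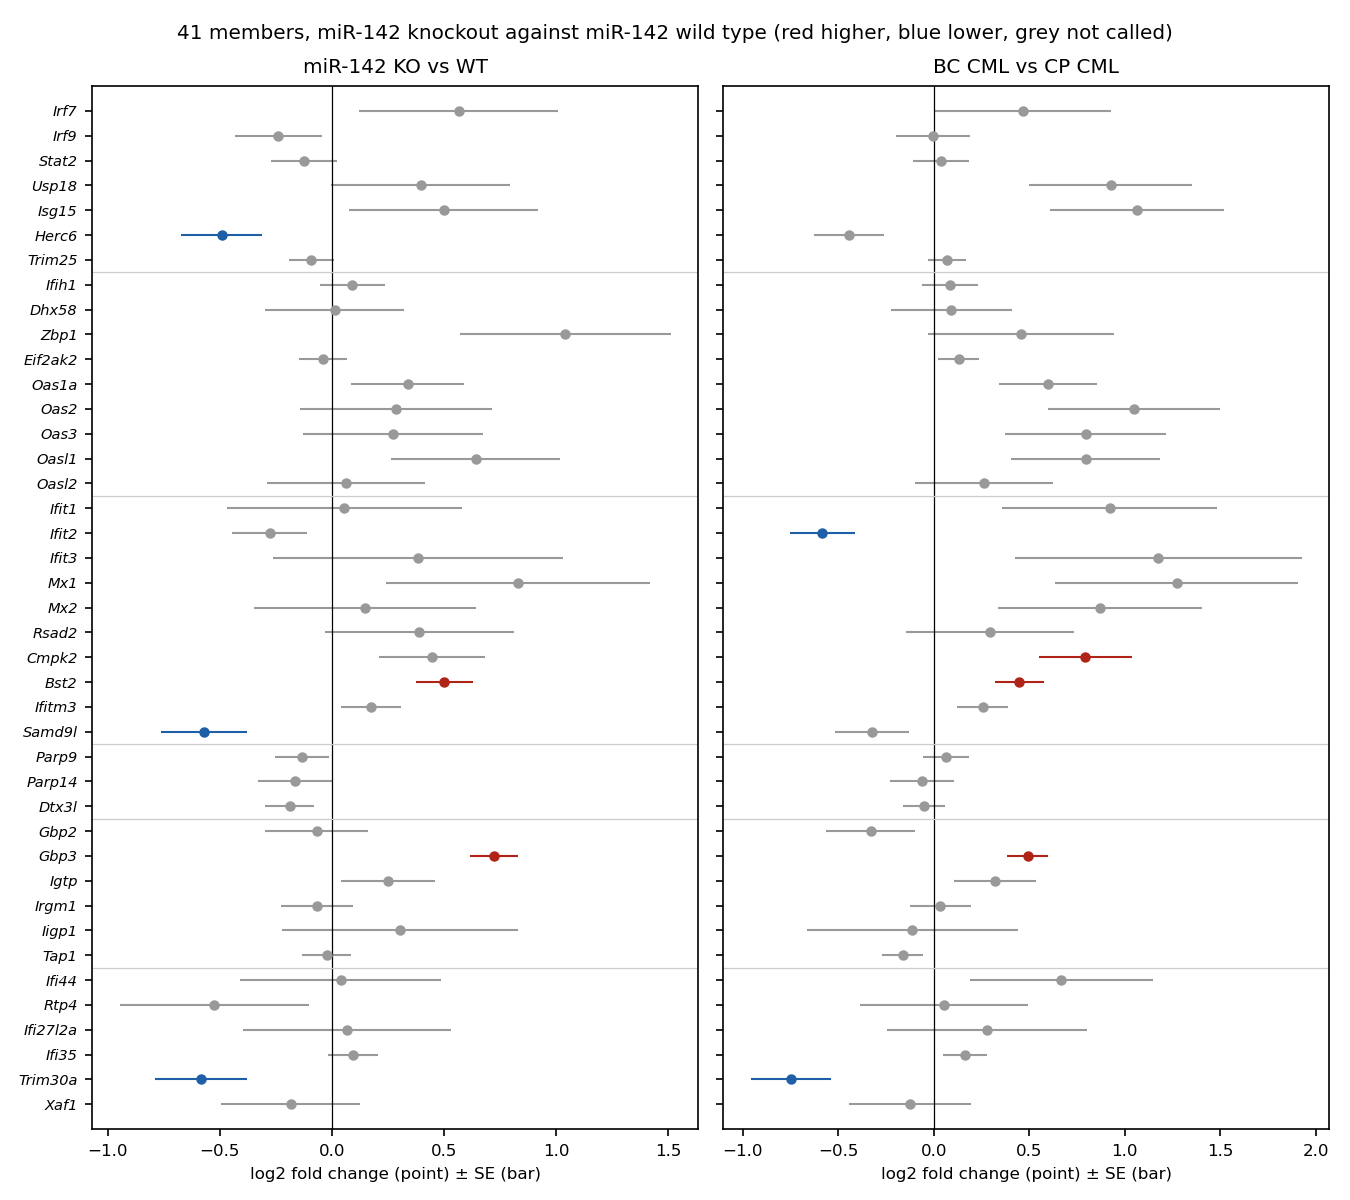
Log2 fold change (point) and standard error (bar) of each of the 41 members, ordered by role, for miR-142 KO against WT and for BC CML against CP CML, with red called higher, blue called lower and grey not called by edgeR. Gbp3 and Bst2 are called higher and Trim30a lower in both panels, and most other bars reach across or near 0.

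Whether the effect of miR-142 loss differed between leukemic and normal LSKs was tested as an interaction. Of the 41 members 0 were called by edgeR's quasi-likelihood test, where 3.99% of all tested genes were called in either direction. An unadjusted p under 0.05 was also reached by 0 members. The likelihood ratio test and DESeq2 also called 0. The standard errors were wide for the members that vary most, for example 0.86 ± 0.77 for Ifit1 on the log2 scale, and Gbp3 had -0.23 ± 0.15 (adjusted p = 0.41 by edgeR). With BC CML 3 and miR-142 KO 3 both left out, Ifit2 and Tap1 were called, with interaction values of -0.61 and -0.36. In that fit 836 of 13597 tested genes were called in either direction.

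Because the design removes miR-142, the 3' UTRs of the members (GENCODE M21 on GRCm38, the longest per gene among its coding transcripts) were searched for the complement of bases 2 to 8 of each arm. The mature arms, from RefSeq, are printed with this seed in capitals, since the seed is what defines the match.
mmu-miR-142a-5p, chr11:87756867-87756887, plus strand: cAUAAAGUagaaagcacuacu
mmu-miR-142a-3p, chr11:87756903-87756925, plus strand: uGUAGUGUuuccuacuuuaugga

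A match to the 3p arm was present in 2 of 41 members, or 4.88%, against 6.92% of the 12609 tested genes with a 3' UTR, and a match to the 5p arm in 5 of 41, or 12.2%, against 15.8%. The 2 members with a 3p match were Gbp3 and Ifih1, and the sites are shown with the match in capitals.
Gbp3, chr3:142573086-142573108, plus strand: ccagttgtACACTACagataaat
Ifih1, chr2:62597823-62597845, minus strand: ttttcgctACACTACtgagctaa

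Gbp3 was called higher in both knockout comparisons, as given above. Ifih1 was not, with log2 fold changes of 0.09 ± 0.14 in miR-142 KO against WT and 0.09 ± 0.15 in BC CML against CP CML. The 5 members with a 5p match were Irf9, Herc6, Parp9, Dtx3l and Ifi44, of which 0 were called higher in either comparison and Herc6 was called lower in miR-142 KO against WT. A match is a description of letters and not evidence of binding.

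How evenly the members were expressed among mice of 1 group differed between the groups. The median SD of log2 CPM over the 41 members was 0.73 in miR-142 KO, 0.49 in BC CML, 0.26 in WT and 0.17 in CP CML, against 0.18, 0.13, 0.15 and 0.14 over all tested genes. The widest spread was that of miR-142 KO for 40 of 41 members, and the narrowest that of CP CML for 32. The members also moved together from library to library. The mean log2 level of all 41, relative to the WT mean, was -1.59 in miR-142 KO 3 and 0.67 and 0.82 in miR-142 KO 1 and 2, with the 3 males of that group from -0.46 to 0.30. In BC CML it was 0.17 in BC CML 3 and -1.45 to -0.68 in the other 5 libraries. The 6 CP CML libraries lay between -1.10 and -0.89, and the WT libraries between -0.35 and 0.37.

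BC CML 3 was the highest of its group for 40 of 41 members, Ifitm3 being the exception. miR-142 KO 3 was the lowest of its group for 38 members, miR-142 KO 2 the highest for 33, WT 1 the highest for 33, and BC CML 5 the lowest for 31. Ifit3 had 0.177 CPM, or 4 counts, in miR-142 KO 3 and 8.53 CPM in miR-142 KO 2, a 48.2-fold range within 1 genotype and sex. Iigp1 and Mx1 had 52.6-fold and 39.3-fold ranges between the same libraries. By contrast Gbp3 varied 1.62-fold over the 6 knockout libraries.

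**Figure D5:**
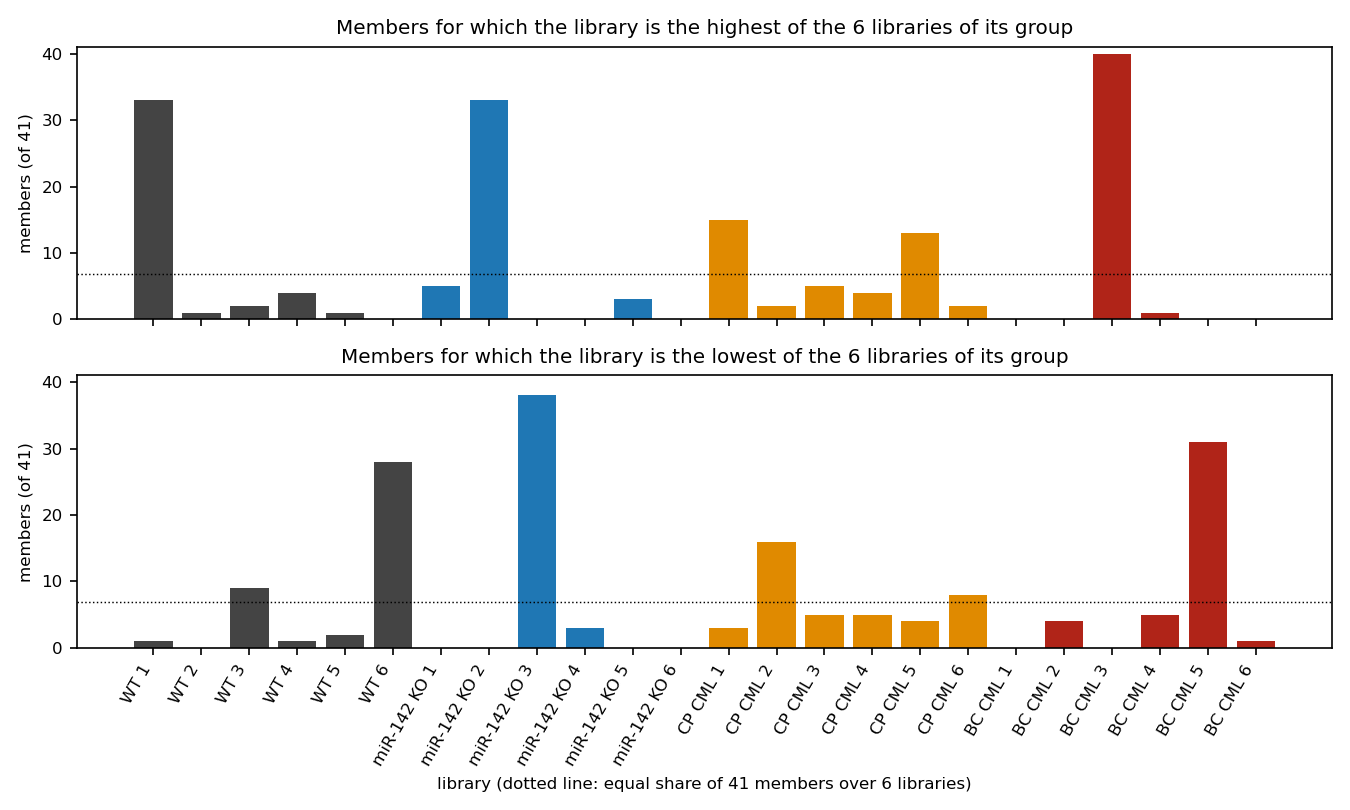
Number of the 41 members for which each library is the highest (upper panel) or the lowest (lower panel) of the 6 libraries of its group, coloured by group; the dotted line is an equal share of 41 members over 6 libraries. BC CML 3 is the highest for 40 members and miR-142 KO 3 the lowest for 38, while no CP CML library exceeds 16.

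miR-142 KO 2, miR-142 KO 3 and BC CML 3 were females, and the sexes were compared with group as a covariate. By edgeR 0 of 41 members were called, where 0.651% of all tested genes were called in either direction. DESeq2 and the likelihood ratio test also called 0. Of the 41 members, 9 had an unadjusted p under 0.05 by edgeR. The share of all tested genes under that unadjusted limit is not given here. The members also moved together from library to library, so counts at that limit do not gauge how broad a sex difference is. The fitted value was higher in females for 41 of 41 members, with a median of 0.25 against 0.01 over all tested genes, and the female mean was the higher in all 4 groups for 16 members, in 3 groups for 21 and in 2 groups for 4. Without BC CML 3 and miR-142 KO 1, 2 and 3 the median was 0.10, with 0 called and 3 at an unadjusted p under 0.05. Without miR-142 KO 3 alone the median was 0.34, with 31 members at an unadjusted p under 0.05, and without BC CML 3 alone it was 0.16, with 2. With both left out the median was 0.22, with 23 at an unadjusted p under 0.05 and 1 called (Usp18, 0.62), where 251 of 13597 tested genes were called. In males alone the median member difference was -0.79 for CP CML against WT, with 33 members called lower, and -0.92 for BC CML against miR-142 KO, with 31 called lower. In females alone the medians were -1.03 and -0.73, and 5 and 0 members were called, with 27 and 4 at an unadjusted p under 0.05. Over all tested genes, 3749 and 3977 of 13561 were called in either direction in males for these 2 comparisons. In females 3059 and 938 of 13584 were called.

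The remainder of the pathway was read from lists of ligands, receptors, factors, inhibitors and other targets. Of 10 interferon genes in the table, 0 passed the filter. Ifna1, Ifna2, Ifna4, Ifnl2 and Ifnl3 had 0 counts in all 24 libraries, which allows at most 0.182 CPM in the shallowest library (3 counts), and Ifnb1 reached 2 counts. The limit of 0.182 CPM covers counting error only. Ifng reached 32 counts, or 1.41 CPM, in miR-142 KO 2, the library with the highest level of most members in its group. It was at 0 to 0.442 CPM in the other 5 libraries of that group. Among these was miR-142 KO 1, whose mean member level relative to WT was 0.67, against 0.82 in miR-142 KO 2. Whether Ifng bears on the level of the members was not tested.

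Receptor transcripts were called higher or not at all. In CP CML against WT, 2 of 5 tested receptor genes rose and 0 fell, Ifngr2 by 0.53 ± 0.08 and Ifngr1 by 0.55 ± 0.11, and Ifnar1 and Ifnar2 had values of -0.08 ± 0.04 and -0.07 ± 0.06 that were not called. In BC CML against CP CML 4 of 5 rose, with Ifngr2 at 0.93 ± 0.08 (adjusted p = 5.4e-09 by edgeR), Ifnar1 at 0.27 ± 0.04 and Ifnar2 at 0.21 ± 0.06. Ifngr2 also rose in miR-142 KO against WT and in BC CML against miR-142 KO, by 0.82 ± 0.08 and 0.64 ± 0.08, and Ifngr1 by 0.42 ± 0.11 in each. Ifnar1 and Ifnar2 were not called in either of those comparisons.

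Among the IRF factors outside the 41 members, Irf1 fell by 0.32 ± 0.13 in CP CML against WT (adjusted p = 0.043 by edgeR) and was not called in the other 3 comparisons, with values from -0.21 to 0.03. Irf2, which opposes IRF1, fell in all 4 comparisons, by 0.36, 0.34, 0.30 and 0.31 on the log2 scale in the order CP CML against WT, BC CML against miR-142 KO, BC CML against CP CML and miR-142 KO against WT. These comparisons share groups of libraries, so they are not independent of each other.

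Of 9 tested negative regulators, 5 rose and 2 fell in CP CML against WT. The suppressors of cytokine signaling Socs3 and Socs1, which bind JAK kinases and receptors, rose by 2.27 ± 0.39 and 1.01 ± 0.26 (adjusted p = 8.0e-05 and 0.0034 by edgeR), and the phosphatases Ptpn1 and Ptpn2, which dephosphorylate JAK kinases, by 0.44 and 0.28. Socs3 also rose by 1.13 ± 0.38 in BC CML against miR-142 KO. Of 12 tested upstream sensors and adaptors, 2 rose and 5 fell in CP CML against WT, among them Myd88, the adaptor of most Toll-like receptors, which rose by 0.90 ± 0.11, and Ddx58 (RIG-I) and Tlr3, which fell by 0.79 ± 0.18 and 1.52 ± 0.38. Of 11 genes of MHC class I presentation, 1 rose and 3 fell, with B2m at -0.42 ± 0.08. Over all tested genes 22.5% were called higher and 22.9% lower in this comparison, and for lists this short the receptor, inhibitor, sensor and MHC counts are descriptions only. A wider list of other interferon-induced genes, 53 of them tested, had 36 lower and 2 higher in CP CML against WT, and 36 lower and 2 higher in BC CML against miR-142 KO, with medians of -0.61 and -0.65. In BC CML against miR-142 KO 19.3% of all tested genes were called lower and 20.3% higher. The wider list shares Nlrc5, Psmb8, Psmb9 and Tap2 with that of MHC class I presentation, so the 2 lists are not separate. It had 4 lower and 4 higher in BC CML against CP CML, where 17.6% of all tested genes were called lower and 20.4% higher. In miR-142 KO against WT it had 8 lower and 7 higher, against 16.4% and 19.9% of all tested genes. Pml, Ifi47 and Epsti1 fell by 0.70, 0.48 and 0.77 in CP CML against WT and by 0.70, 0.43 and 0.64 in BC CML against miR-142 KO.

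Markers of other cells that an LSK sort could hold also differed between the groups. The summed level of 6 monocyte markers was 69.8 to 554.9 CPM in WT, 768.7 to 1067 CPM in CP CML, 300.9 to 938.1 CPM in miR-142 KO and 1299 to 1575 CPM in BC CML, and 5 of the 6 rose in CP CML against WT. That of 5 mast cell or basophil markers was 78.3 to 569.3, 1079 to 2025, 223.2 to 2600 and 3158 to 6812 CPM in the same order. A sum can rest on its most abundant markers. Of the 6 monocyte markers, 1 was called higher and 1 lower in BC CML against CP CML, and 2 higher and 0 lower in BC CML against miR-142 KO. Of the 5 mast cell or basophil markers, 3 were called higher and 0 lower in each of these comparisons. The lowest log2 fold change among these 5 was -1.30 in BC CML against miR-142 KO. The sum of 8 markers of plasmacytoid dendritic cells, which are high producers of interferon, was 292.6 to 386.1 CPM in WT, 254.0 to 354.9 in CP CML, 295.1 to 403.7 in miR-142 KO and 262.8 to 316.1 in BC CML. Of its 6 tested markers, 3 were called lower and 1 higher in CP CML against WT, and Klk1 was at 0 in every library. Within miR-142 KO, library 3 had the lowest sums of macrophage (13.3 CPM against up to 104.6), neutrophil (18.4 against up to 180.8) and erythroid markers (3.58 against up to 146.8). It was also lowest for monocyte, plasmacytoid, B or plasma cell and megakaryocyte markers, the sort genes and other LSK genes. It was not lowest for lineage, T or NK cell and mast cell or basophil markers. The plasmacytoid sum was highest in miR-142 KO 2 and BC CML 3 of their groups. Within WT that sum was lowest in WT 1, the library highest for most members. Within WT, library 3 had the highest macrophage sum (1213 CPM). All 4 tested erythroid markers fell in CP CML against WT, with no overlap and a median log2 fold change of -2.51, and all 4 also fell in BC CML against miR-142 KO, as did all 6 neutrophil markers. The sum of 6 B or plasma cell markers was 38.5 to 949.9 CPM in WT and 146.8 to 762.4 CPM in CP CML, against 2.61 to 12.5 CPM in miR-142 KO and 1.30 to 13.1 CPM in BC CML. The part of these cells in the level of the members was not tested.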

How the data were processed

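Bone marrow LSKs of 24 mice were profiled by poly(A) RNA-seq (2x101 bases). Per the labels and the study's methods, the authors trimmed reads with Trimmomatic, aligned them to mm10 with STAR 2.6.0, counted reads per gene with HTSeq 0.11.1 and deposited raw counts; the annotation and strand setting are not given in the sources used here. Groups and sex came from the labels. The study's methods state a smaller number of mice per group than the 6 deposited. Replicate numbers follow accession order and pair nothing.

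From these counts, filterByExpr, TMM scaling and the quasi-likelihood test of edgeR 4.0.16 (R 4.3.3) were run on all 24 libraries in 1 fit (the study used the likelihood ratio test, tried here as an alternative), with Benjamini-Hochberg adjustment over 13520 genes and a threshold of 0.05. CPM were computed from TMM-scaled library sizes. The fits were tested on simulated data. No 2 libraries of a group agreed within sampling noise: the chi-square per gene was at least 6.00 for every pair. P-values set each difference against the spread between mice, estimated for each gene over all 4 groups together. The median SD of the members ran from 0.17 in CP CML to 0.73 in miR-142 KO. The shared estimate can therefore understate or overstate the spread of the groups compared.

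The members and lists were chosen with earlier results of these data known. All 41 members are accounted for by role; full values are given for up to 8 called members per comparison with the largest change and for Irf7, Irf9, Stat2, Isg15 and Usp18, and pathway genes are named by smallest p, up to 5 per list, with Irf1 and the receptors throughout; 1 gene of that rule is not reported here. Alternatives were DESeq2 1.42.0, other scalings and filters, a sex term, the 12 libraries compared alone, a fold limit, and each library left out; subsets by sex and 3 sets of libraries left out were added after seeing the data. Promoter windows and UTRs were read with Python 3.11.15.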

Additional observations from a re-analysis of the deposited data

Results flagged for a closer look

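Each member was examined in each of the 4 groups of 6 libraries, 164 sets of values in all, for a highest or lowest library far from the others (Dixon's test at the 95% level). Chance alone marks about 1 set in 20, and 9 were marked. In 8 of them BC CML 3 was the highest of the BC CML libraries, at 77.2 CPM for Stat2, 67.4 CPM for Ifih1, 40.6 CPM for Ifit2, 37.4 CPM for Rsad2, 49.6 CPM for Gbp2, 106.7 CPM for Irgm1, 222.5 CPM for Tap1 and 95.9 CPM for Trim30a. In the other, miR-142 KO 3 was the lowest of its group, at 45.4 CPM for Samd9l.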

How the results depend on the processing

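Under the alternatives tried, no called value changed sign. The count of members called for CP CML against WT was 18 with a log2 fold change of at least 1 required and 5 in females alone, and ranged from 32 to 38 as each library was left out. For BC CML against miR-142 KO it was 10 with only the 12 libraries compared, 12 with the fold limit and 0 in females alone, and ranged from 14 to 39. For BC CML against CP CML it was 8 by the likelihood ratio test, 8 by DESeq2, 9 with the 12 libraries, 0 with the fold limit, 8 in males and 0 in females alone, 9 without BC CML 3 and miR-142 KO 3 and 12 when miR-142 KO 1 and 2 were left out as well, and ranged from 5 to 10. For miR-142 KO against WT it was 2 with the 12 libraries, 0 with the fold limit, 2 in females, 11 without BC CML 3 and miR-142 KO 3 and 8 without these and miR-142 KO 1 and 2, and ranged from 2 to 6. The interaction had 2 calls and the comparison of sexes 1 call without BC CML 3 and miR-142 KO 3, and both ranged from 0 to 0. Counts over all tested genes moved as well, and several are given with the results. The causes of these changes were not tested. The subsets hold fewer libraries, and a fit of the 12 libraries compared does not share its estimate of spread with the other groups. In that fit the count for CP CML against WT was 40. Other scalings, filters and a sex term kept each count within 1.5 times its value. No paired analysis was possible because the labels carry mouse numbers and no replicate numbers shared between groups. Depth limits what can be said of the interferon genes and of Ifit3.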
